A study of Drosophila melanogaster with 3 samples.

Results

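Chromatin immunoprecipitation with sequencing (ChIP-seq) can place more than 1 summit of enrichment inside a single called interval. Such intervals are described here for E(spl)mβ, in the list of peaks kept by the irreproducible discovery rate (IDR), a method that retains peaks ranked alike in replicates. They were chosen by a rule on the deposited rows alone: rows of the IDR list that share chromosome, start and end with at least 1 other row. The rule found 297 intervals among 8236 on the chromosome arms, or 3.61% of all intervals, and these 297 held 610 of the 8549 summits. Of the 297, 283 held 2 summits, 13 held 3 and 1 held 5. The study has 1 group of 3 biological replicates and no second condition. Each replicate was a pool of male and female embryos aged 0 to 24 h from 1 transgenic line that stably expresses E(spl)mβ with green fluorescent protein fused to its C terminus, precipitated with an antibody against the fluorescent tag. The labels do not give the promoter or the copy number of the transgene, and whole embryos mix all cell types, so a summit may come from a few cells or from many.

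E(spl)mβ belongs to the Hairy and Enhancer of split family of basic helix-loop-helix repressors, which are switched on by Notch signalling and bind short DNA elements together with the co-repressor Groucho. Family members bind E-boxes, C-boxes and related N-boxes, and genes that respond to Notch often carry sites for Suppressor of Hairless, the DNA-binding partner of the Notch intracellular domain. A broad bound region with several summits can hold separate binding positions, such as the modules of an enhancer, or can be the uneven outline of 1 enriched region. Peak lists alone give the positions and heights of summits, not reads.

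The windows of 101 bp centred on summits are shown for the strongest intervals, on the plus strand of the Release 6 assembly (dm6), with capitals marking CACGTG (an E-box), CACGCG (a C-box), CACNAG (an N-box) or GTGGGAA (a Suppressor of Hairless site), read on either strand. Over the windows of all 8549 summits, 2.35% held CACGTG, 4.01% held CACGCG, 9.30% held CACNAG and 0.889% held GTGGGAA. Interval 1 lies at the start of the tagged gene itself, and its windows are given from the lowest to the highest coordinate, with signals of 19606, 8429 and 432 list units.
interval 1, chr3R:26006097-26006197: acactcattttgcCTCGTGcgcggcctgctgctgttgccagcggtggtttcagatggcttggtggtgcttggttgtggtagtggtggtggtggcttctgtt
interval 1, chr3R:26006325-26006425: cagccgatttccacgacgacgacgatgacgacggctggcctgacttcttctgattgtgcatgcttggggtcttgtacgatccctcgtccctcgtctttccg
interval 1, chr3R:26007212-26007312: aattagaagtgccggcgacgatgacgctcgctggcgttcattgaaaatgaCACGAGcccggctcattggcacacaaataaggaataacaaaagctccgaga
Only the first and the last of these hold one of the marked motifs, in each case CACNAG.

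Interval 2, on the X chromosome, has the next highest signal. Its summits are also the farthest apart of all adjacent summits within an interval, and neither window holds a marked motif.
interval 2, chrX:12751273-12751373: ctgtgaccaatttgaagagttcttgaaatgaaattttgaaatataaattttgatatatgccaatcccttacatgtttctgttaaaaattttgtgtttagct
interval 2, chrX:12752304-12752404: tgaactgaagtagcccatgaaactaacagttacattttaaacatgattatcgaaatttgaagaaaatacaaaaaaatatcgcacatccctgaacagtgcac
Interval 3, on 2L upstream of CG31871, follows in signal and is a pair at close spacing, in which the stronger summit comes first and carries CACGCG.
interval 3, chr2L:10661566-10661666: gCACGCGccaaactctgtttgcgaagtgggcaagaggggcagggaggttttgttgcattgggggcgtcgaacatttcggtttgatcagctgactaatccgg
interval 3, chr2L:10661769-10661869: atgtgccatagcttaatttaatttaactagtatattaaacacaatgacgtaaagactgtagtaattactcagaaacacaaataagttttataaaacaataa
Interval 7, on 3L, has the most unequal pair, with the stronger summit first, and was chosen for display after its values were seen because its stronger window holds the extended E-box GGCACGTG.
interval 7, chr3L:12090355-12090455: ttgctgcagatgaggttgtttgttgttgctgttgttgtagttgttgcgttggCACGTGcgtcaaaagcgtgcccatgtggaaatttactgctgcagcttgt
interval 7, chr3L:12090563-12090663: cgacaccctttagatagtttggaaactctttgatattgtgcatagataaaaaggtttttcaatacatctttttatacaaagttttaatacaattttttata
Interval 9, on 3R beside interval 1, has the most summits, and its strongest window holds GTGGGAA near its end. The windows of its other summits hold no marked motif and are not shown.
interval 9, chr3R:26008594-26008694: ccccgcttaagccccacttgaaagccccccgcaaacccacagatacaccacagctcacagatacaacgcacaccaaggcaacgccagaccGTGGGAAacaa

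Most adjacent summits were about the same distance apart. The 313 distances inside intervals ran between 199 and 1031 bp, with a median of 205 bp and quartiles of 201 and 216 bp. No adjacent summits lay closer than 199 bp in the IDR list, the pooled list or any replicate list, so most pairs sat at the smallest spacing that the lists contain. The labels give fragments of 200 to 800 bp for all 3 replicates, so most distances lay at the short end of the fragment lengths. Whether such pairs are separate binding positions cannot be told from the lists. Of the 313 distances, 247, or 78.9%, were at most 220 bp, and 22 were over 500 bp. With these limits, which were set after the distances had been seen, 238 intervals had all distances at most 220 bp and are called close, 38 had a distance over 220 bp and none over 500 bp, and 21 had a distance over 500 bp and are called wide.

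At the smallest spacing the order of the summits was nearly fixed on the reference strand. Among adjacent summits at most 220 bp apart in 1 interval, the stronger one had the lower coordinate in 246 of 247 pairs (99.6%, lower exact 95% bound 97.8%), and among pairs at that distance in different intervals in 394 of 395 (99.7%, lower bound 98.6%). Between 220 and 500 bp the share was 86.4% of 44 pairs (72.6 to 94.8%) in 1 interval and 79.8% of 89 pairs (69.9 to 87.6%) in different intervals. Between 500 and 1100 bp it was 36.4% of 22 pairs (17.2 to 59.3%) in 1 interval and 46.0% of 693 pairs (42.3 to 49.8%) in different intervals. At that distance the pairs in different intervals thus leaned to the higher coordinate. The pooled list leaned further, with 40.0% of 6557 such pairs (38.8 to 41.2%), and replicates 1, 2 and 3 had 41.1, 41.0 and 43.1%. For pairs in 1 interval the exact interval included equal shares. At most 220 bp apart, the replicate lists showed the same order as the IDR list, with 406 of 406, 247 of 247 and 196 of 196 pairs inside intervals in replicates 1, 2 and 3. In all 238 close intervals the second summit thus lay just beyond the strongest one toward higher coordinates, whichever way the nearest gene ran. At promoters, the second summit was further upstream than the strongest for 88 of 89 genes on the minus strand and for 7 of 69 genes on the plus strand. A position that follows the coordinate system rather than the gene moves with most of the pairs described here. Its source was not tested, and the peak caller is not given in the sources used here.

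**Figure D1:**
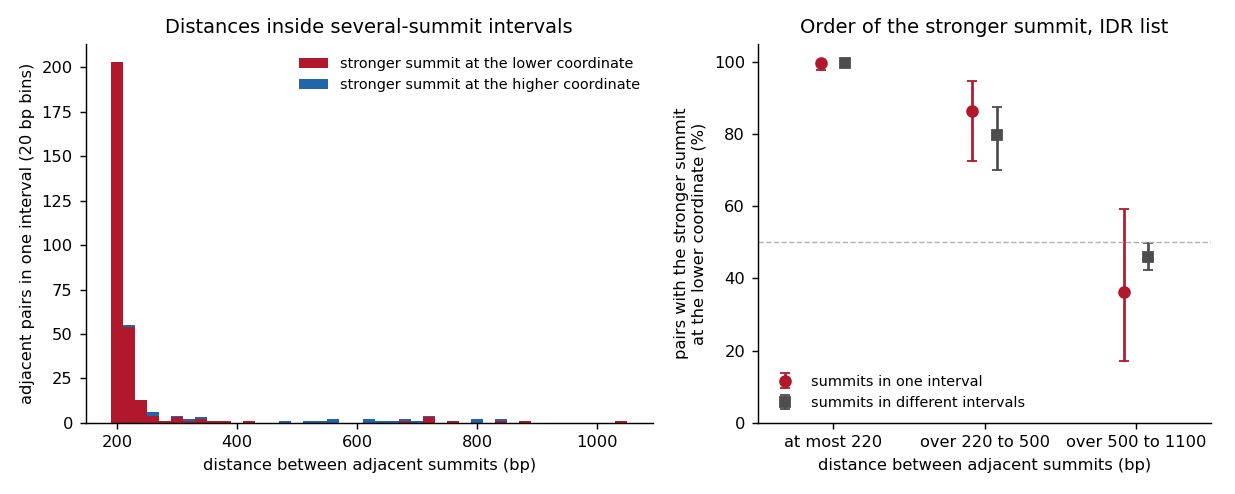
Left, distances in bp between adjacent summits of one interval, with pairs per 20 bp bin coloured by which summit is the stronger. Right, share of IDR pairs whose stronger summit has the lower coordinate, by distance, with exact 95% intervals, for summits in one interval (circles) and in different intervals (squares); the share is 99.6% at most 220 bp and 36.4% beyond 500 bp for pairs in one interval, and the dashed line marks equal shares.

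Several-summit intervals were mostly strong peaks, which the rule favours because every summit had to pass the signal limit of the IDR list. The signal is the authors' own value per peak, with no stated unit, in list units that are comparable only within a list. The strongest summits had a median of 1444 units, with a range of 385 to 19606, and 225 of the 297 fell in the quintile with the highest signal. Their second summits had a median of 522 units, and the summits of single-summit intervals had a median of 521. At the limit, the weakest second summits that counted had 287, 288 and 289 units, and the strongest further summits that missed it in the pooled list had 286, 285 and 283 units. A further 251 of the 7939 single-summit intervals held such a weaker summit, and would have counted with a lower limit. Widths ran between 293 and 3391 bp, with a median of 586 bp, against a median of 391 bp and a range of 118 to 1400 bp for single-summit intervals. The width of 470 bp was shared by 2325 single-summit intervals and by 0 intervals with several summits. On the arms, 48 of 1406 intervals on X held several summits, 56 of 1511 on 2L, 66 of 1452 on 2R, 62 of 1909 on 3L, 65 of 1942 on 3R and 0 of 16 on chromosome 4, where a count of 0 allows a share of up to 20.6% (exact 95% bound).

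Within an interval, the strongest summit usually exceeded the second by more than 1.5 times. The median ratio was 2.54, with a range of 1.02 to 17.0, and 48 of the 297 intervals had a ratio of at most 1.5 while 47 had one over 5. The wide intervals had a median ratio of 1.81 and a range of 1.05 to 6.89, against a median of 2.73 and a range of 1.08 to 17.0 in the close intervals. Interval 7 gave the largest ratio, with 6503 units at its strongest summit and 381 at the other. In the replicate lists its strongest summit had 3304, 1648 and 1521 units, and its second summit was not found in replicate 1 and had 301 and 96.2 units in replicates 2 and 3. Interval 10 lies within the annotated body of ph-p, with its strongest summit 440 bp upstream of one start site and the second 402 bp downstream of another. The gene encodes the Polycomb group protein Polyhomeotic-proximal. It was the most even of the 10 strongest intervals, with 5882 and 5621 units at summits 674 bp apart. Its replicate signals were 2962 and 2695, 1193 and 1144, and 2384 and 2261 units, with the same summit the higher by a small margin in all 3.

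**Figure D2:**
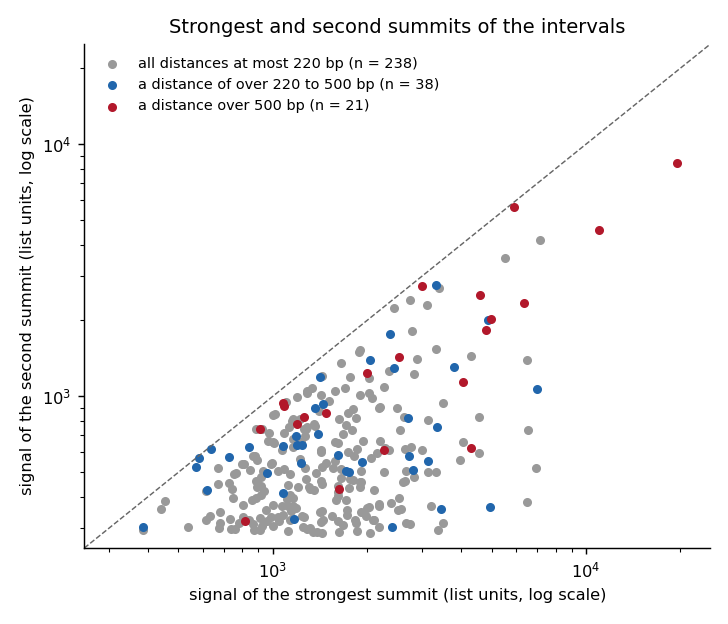
Signal of the strongest summit (x axis) against the second summit (y axis) of each interval, in list units on log scales, coloured by the widest distance between adjacent summits. All points lie below the dashed line of equal signals by construction; the 21 intervals with a distance over 500 bp have a median ratio of 1.81 and the 238 close intervals one of 2.73.

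Most summits were also present in each replicate, although the shared interval often was not. A replicate summit within 100 bp was found for every summit of 272, 259 and 232 of the 297 intervals in replicates 1, 2 and 3, and for every summit in all 3 replicates in 188 intervals (63.3%, exact 95% interval 57.5 to 68.8%). Replicate 3 matched fewer second summits, 83.2% against 94.9% and 91.6% in replicates 1 and 2, while it matched 96.3% of strongest summits. The replicates entered the pooled and IDR lists, so these shares are descriptions and not independent tests. At like signal, summits of several-summit intervals were matched in all 3 replicates less often than those of single-summit intervals: 94.1% of 273 against 98.2% of 1437 in the quintile with the highest signal, and 52.3% of 65 against 77.9% of 1645 in the lowest. The exact intervals of the shares did not overlap in any of the 5 quintiles, but they cover counting error only, and summits of 1 interval are not independent. Signals within a quintile were not matched further, and neither was the distance to the next summit. Among pairs at most 220 bp apart, both summits were matched in all 3 replicates in 63.9% of 238 close several-summit intervals. The share was 58.0% of 395 such pairs in separate single-summit intervals, whose median signals were lower. Where both leading summits were matched in all 3 replicates, the same summit was the stronger in every replicate in 184 of 193 intervals, in 21 of 27 with a ratio of at most 1.5 and in 72 of 72 with a ratio over 3. At close spacing this count says little, since the lower coordinate was the stronger in every such pair inside an interval of the replicate lists. The order was the same in 152 of 152 close intervals, in 18 of 23 with a distance over 220 bp and none over 500 bp, and in 14 of 18 wide ones.

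**Figure D3:**
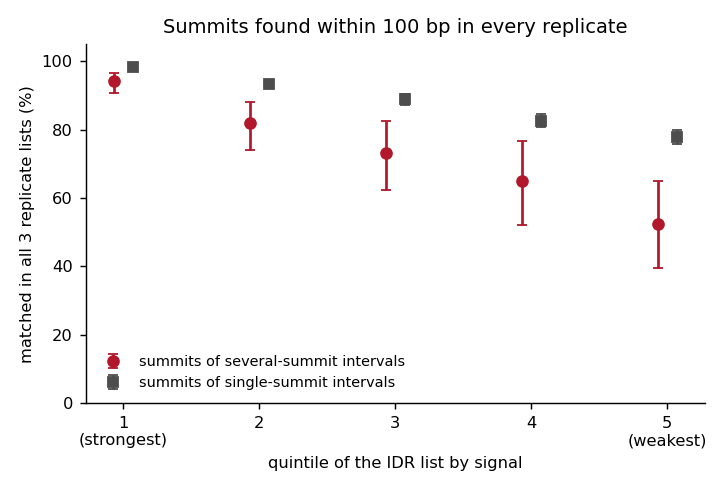
Share of IDR summits with a summit within 100 bp in all 3 replicate lists, by quintile of signal, with exact 95% intervals, for summits of several-summit (circles) and single-summit intervals (squares). The several-summit shares lie below the single-summit ones throughout, at 94.1% and 98.2% for the highest signals and at 52.3% and 77.9% for the lowest.

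The merging of summits into 1 interval varied more than the summits. Both leading summits lay in a single interval of the replicate list in 156 of 272 cases in replicate 1, in 88 of 260 in replicate 2 and in 90 of 237 in replicate 3, and in all 3 replicates for 47 of the 297. The replicate lists held 439, 271 and 216 intervals with several summits and the pooled list 548. In the wide intervals, both leading summits were matched in 21, 19 and 20 of 21 cases in replicates 1, 2 and 3 and shared an interval in 14, 6 and 5 of them.

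The neighbourhood of the tagged gene held many of the broadest intervals of the list. Within 50 kb of the start site of E(spl)mbeta-HLH (chr3R, position 26006023, minus strand), 11 of 26 intervals had several summits (42.3%, exact 95% interval 23.4 to 63.1%), against 286 of 8210 elsewhere (3.48%, 3.10 to 3.90%). These 11 intervals held 29 summits, and 5 of the 14 intervals with at least 3 summits and 5 of the 10 widest lay here. Their median width was 1403 bp, against 580.5 bp elsewhere, and the median distance between adjacent summits was 268.5 bp, against 205 bp elsewhere. This window was chosen after the positions had been seen. The line carries a transgene for the tagged protein, and whether it carries flanking DNA of this region is not given in the sources used here, so signal from the transgene and from the native locus cannot be told apart.

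Interval 1 spans chr3R:26005485-26007778 and reaches upstream of E(spl)mbeta-HLH (FBgn0002733), the gene of the tagged protein. Its strongest summit, 124 bp upstream of the start site, had 9675, 4871 and 4983 units in replicates 1, 2 and 3. The second summit, 352 bp upstream, had 4528, 2150 and 1470 units, and the weakest, 189 bp upstream of the long noncoding RNA gene lncRNA:CR45039, had 172, 176 and 213 units. The first summit was the highest of the interval in all 3 replicates, and the weakest was far below the others in each. Interval 9 overlaps its end at chr3R:26007743-26011133 with 5 summits of 6333, 2342, 512, 1381 and 1212 units in order of coordinate. Its last summit lay 96 bp upstream of E(spl)malpha-BFM, a Bearded family gene that acts in Notch signalling, and had 653, 280 and 259 units in replicates 1, 2 and 3. The summit of 512 units had 150 and 165 units in replicates 1 and 2 and no match in replicate 3, so only 4 of the 5 summits were found there.

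Other genes of the complex had several-summit intervals too. Interval 40, at chr3R:25996061-25997725 beside E(spl)mdelta-HLH and CG43116, had summits of 2991, 635 and 2737 units, and its outer summits changed order between replicates, with 1475 and 1025 units in replicate 1, 744 and 721 in replicate 2 and 884 and 1099 in replicate 3. Interval 148, upstream of E(spl)mgamma-HLH, had summits of 1450, 929 and 506 units. Interval 59, upstream of E(spl)m3-HLH, had summits of 1435, 504 and 2534 units, the strongest being 340 bp upstream of the start site. In replicate 1 that summit was the lower one, with 814 units against 1049 at the first summit, while it was the higher in replicates 2 and 3, with 676 against 221 and 1146 against 263 units. Interval 43, upstream of E(spl)m7-HLH, had 2824 and 1225 units, and interval 266, upstream of E(spl)m8-HLH, had 817 units at its strongest summit and 321 at the other. Intervals 28, 130 and 219 lay between genes of the complex, and their strongest summits had 3401, 1630 and 1079 units. Of the 7 bHLH genes of the complex, which encode repressors of the same family, 6 had a summit of a several-summit interval within 1000 bp of a start site, beside 264 of 13945 protein-coding genes, or 1.89%, over the genome. The exception was E(spl)m5-HLH, whose nearest upstream summit was that of a single-summit interval 1037 bp away, with 1576 units. Of the Bearded family genes, which encode small inhibitors of the ubiquitin ligase Neuralized, 2 of 8 had one, E(spl)malpha-BFM and E(spl)m6-BFM. At E(spl)m6-BFM, interval 194 had 1196 and 994 units, and its stronger summit had no match in replicate 1. The co-repressor gene gro, at the end of the complex, had single-summit intervals only, the highest with 2457 units.

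**Figure D4:**
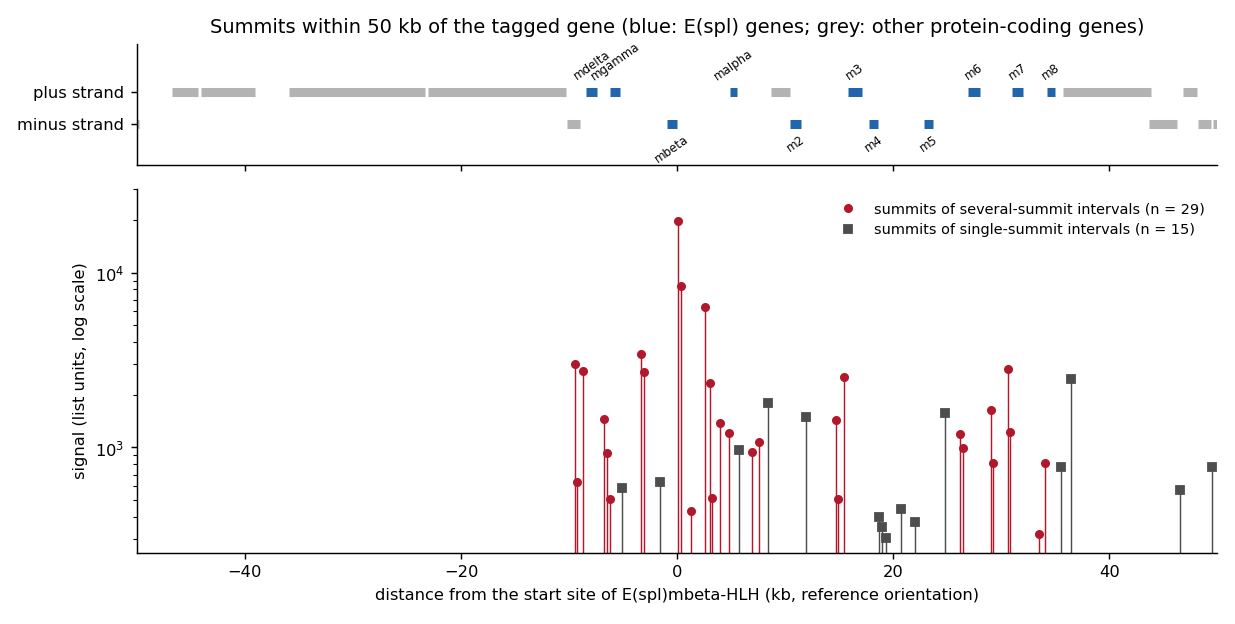
Signal in list units (log scale) of the 44 IDR summits within 50 kb of the start site of E(spl)mbeta-HLH against distance in kb, with protein-coding genes above by strand. The 29 summits of several-summit intervals (circles) include the highest signal of 19606 units, and the 15 single-summit intervals (squares) lie among and beyond them.

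Outside this region, 15 of the 21 wide intervals lay at other loci. They are named here by their spacing, after their values were seen. Interval 2, at chrX:12750697-12752628 over the start of the long noncoding RNA gene lncRNA:CR44619, was the strongest of them, with 10977 and 4584 units at summits 1031 bp apart. Its strongest summit had 4136, 2324 and 4260 units in replicates 1, 2 and 3 and its other summit 1829, 1043 and 1692 units, and both shared an interval in replicate 1 only. At tara, which encodes a regulator of transcription that works with trithorax group proteins, interval 12 had 4988 and 2029 units at intron summits 792 bp apart, the stronger at the higher coordinate. Its strongest summit had 2321, 1024 and 1666 units in the replicates and its other summit 690, 540 and 835 units. Interval 15, in an intron of NFAT, the fly homologue of the nuclear factor of activated T cells, had 4793 and 1833 units, and its leading summits shared an interval in none of the 3 replicates.

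Interval 19, in an intron of CG9837, had 4300 and 624 units, and interval 16, intergenic with CG13334 as the nearest gene, had 4589 and 2529 units. Wide intervals with lower signal were found at genes of several kinds. At Ptpmeg2, a protein tyrosine phosphatase gene, interval 21 had 4064 units at its strongest summit, 186 bp upstream of the start site, and 1141 units 725 bp away in an intron. At Diap1, which encodes an inhibitor of caspases, interval 131 had 1629 and 431 units in an intron. Interval 216, at grp, which encodes the checkpoint kinase Chk1, had 1086 and 915 units, and interval 196, at RapGAP1, a regulator of the GTPase Rap1, had 1191 and 775 units. Interval 185, in an intron of the potassium channel gene Irk1, had 1257 and 828 units, and interval 71, intergenic near Ids, had 2269 and 615 units. Interval 91, on both sides of the start of lncRNA:CR45251, had 2000 and 1243 units, and interval 250, near CG42807, had 908 and 742 units. Interval 147, upstream of l(1)G0320 and within 1000 bp of a start site of the ribosomal protein gene RpS28b, had 1475 and 860 units. Of the 21 wide intervals, the strongest summit was at a promoter in 9, in an intron in 6 and intergenic in 4, with a noncoding exon and a 3' UTR as the others, and all summits were matched in all 3 replicates in 14 (66.7%, exact 95% interval 43.0 to 85.4%), against 152 of 238 close intervals (63.9%, 57.4 to 70.0%).

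The other strong intervals had adjacent summits less than 350 bp apart. Interval 3, upstream of CG31871, had 7144 and 4155 units, and its replicate signals were 3270 and 1920, 1730 and 969, and 2071 and 1187 units, the same order each time. Interval 11, in an intron of CG9663, had 5537 and 3554 units at the minimum distance of 199 bp. Interval 4, 135 bp upstream of CG15771, had 6998 and 1065 units and a start site of that gene between its summits, which lay 228 bp apart. Interval 13, in Dif, which encodes an NF-kappaB factor of the Toll pathway, had 4932 and 364 units 234 bp apart, and the weaker summit was found in replicate 2 only. Interval 14, in an intron of Adf1, a DNA-binding regulator of transcription, had 4875 and 2008 units at 258 bp, and interval 18, upstream of CG1907, had 4570 and 596 units. Intervals 5, 6, 8, 17 and 20, near Tina-1, CG1888, mRpL41, Drat and CG10527, had between 4294 and 6917 units at the strongest summit and between 522 and 1445 at the second. Interval 33, intergenic and upstream of lncRNA:CR45643, was picked after its values were seen because its 3 summits changed order between replicates. Its leading summits had 3316 and 2765 units, with 1239 and 1574 units in replicate 1, 825 and 438 in replicate 2 and 1402 and 805 in replicate 3.

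Signalling genes outside the complex had a several-summit interval within 1000 bp of a start site in small numbers. Of the EGF and FGF receptor genes, 3 of 22 were among them. At spi, which encodes the EGF receptor ligand Spitz, interval 30 had 3352 and 757 units, 197 and 418 bp upstream of the start site. At stumps, which encodes the FGF receptor adaptor, interval 118 had 1733 and 859 units, and at sty, which encodes the feedback inhibitor Sprouty, interval 255 had 882 and 744 units. Of the Notch pathway genes, 2 of 27 were among them: aph-1, a subunit gene of the gamma-secretase that cleaves Notch, with 2359 and 1257 units in interval 68, and mam, which encodes the co-activator Mastermind, with 808 and 537 units in interval 267. The listed gene was the nearest only to the second summit, 180 bp upstream of aph-1 and 213 bp upstream of mam, while the strongest summits lay nearest to Snx21 and RN-tre. Replicate signals at spi were 1257 and 272, 705 and 201, and 1364 and 351 units, with the same summit the stronger in each.

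Other lists held few members. Among proneural and sense organ genes, 1 of 16 was found, chn (Charlatan, a zinc finger regulator of sense organ development), with 2044 and 1391 units in interval 87, whose order turned in replicate 1, with 683 and 731 units. Among genes of the Dpp, Hedgehog, Wingless and JAK/STAT pathways, 1 of 20 was found, nkd, which encodes the Wingless antagonist Naked cuticle, with 1722 and 337 units. Tracheal genes gave 1 of 12, trh, the master regulator Trachealess, with 1997 and 361 units, and mesoderm genes gave 1 of 13, which is stumps again. Chromatin genes gave 2 of 17, ph-p and Dref, growth genes 2 of 14, E2f1 and cbt, and cytoplasmic ribosomal protein genes 7 of 92, of which 77 had an IDR summit of some kind. The lists of neuroblast and temporal genes, segmentation and Hox genes, and ecdysone and circadian genes gave 0 of 19, 0 of 29 and 0 of 15, although 11, 13 and 10 of their genes had an IDR summit of some kind within 1000 bp. Beside the 1.89% of all genes these are counts of a few genes each, and no list was tested. Of all 13945 protein-coding genes, 4475 had an IDR summit of some kind within 1000 bp, and 264 of these had a several-summit interval. Such a summit was present at 17 of 27 Notch pathway genes and at 15 of 22 EGF and FGF receptor genes. The 1.89% therefore does not allow for how many genes of a list had a summit at all. Among the ribosomal genes with the highest signals, RpS27 had 2187 and 900 units, RpL10Ab 1904 and 456, RpL28 1890 and 1502, and RpL13A 1657 and 476. RpL13 and Dref share interval 129, with 1646 and 516 units.

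By position, strongest summits lay at promoters (within 500 bp of a start site) in 158 of 297 intervals, 53.2% (47.3 to 59.0%), against 43.9% (42.8 to 45.0%) of single-summit intervals. Within the strongest quintile of signal the shares were 58.7% (51.9 to 65.2%) and 58.0% (55.4 to 60.6%), and in the next quintile 33.3% (21.7 to 46.7%) and 42.9% (40.4 to 45.4%), so at like signal the exact intervals overlapped. A further 87 strongest summits were intronic and 44 intergenic. Both leading summits had the same class in 261 intervals. At least 1 summit lay at a promoter in 174 intervals (58.6%, 52.8 to 64.2%). A start site lay between summits in 48 intervals (16.2%, 12.2 to 20.9%), always with start sites of a single strand. Promoters with start sites on both strands within 500 bp made up 33.5% (26.2 to 41.5%) of strongest promoter summits and 32.6% (31.1 to 34.2%) of single ones. The strongest summit was nearer to a start site than the second in 151 of 297 intervals (exact two-sided sign test, p = 0.817, adjusted p = 1 over 18 paired tests), with median distances of 426 and 475 bp. In all 238 close intervals the second summit had the higher coordinate. Which summit was nearer there depended largely on the side of the start site on which the pair lay, so the test says little about them. Here and below, p-values describe intervals of 1 list and not a spread between embryos.

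The strongest summits lay in sequence of lower GC share than the second summits. In windows of 101 bp the medians were 30.7% at strongest and 40.6% at second summits, and the strongest was the lower in 213 of 293 untied intervals (exact two-sided sign test, adjusted p = 7.47e-14 over 18 paired tests). The position at the same distance on the other side of the strongest summit, where no summit was required, had a median of 43.6%, and it exceeded the strongest in 227 of 289 intervals (exact two-sided sign test, adjusted p = 3.66e-22 over 13 comparisons, all chosen after the data were seen). The second summits were lower than that mirror position in 181 of 291 intervals (exact two-sided sign test, adjusted p = 5.41e-05). Strong single summits also lay in a dip of GC share, with means of 28.4% at the summit and 43.7% at 200 bp in the strongest quintile. In the close intervals the test of strongest against second summits thus compared a summit with a position on its flank. That test cannot tell a trait of second summits from their distance to the strongest. Where the ratio was at most 1.5, the second summit had the higher share in 24 of 48 intervals (exact two-sided sign test, adjusted p = 1). In the close intervals the second was higher in 178 of 235 (exact two-sided sign test, adjusted p = 7.25e-15), in those with a distance over 220 bp in 35 of 58 (adjusted p = 0.160), and in the wide ones the medians were 32.7% at both. By quintile of signal, the highest first, the medians at second summits were 31.7, 37.1, 43.6, 42.6 and 42.6%, and those of single-summit intervals 26.7, 30.7, 32.7, 35.6 and 37.6%. Second summits thus had the higher median in each quintile. Strongest summits did too where they occurred, at 29.7, 33.7, 48.5 and 38.6% in the first 4 quintiles, from 225, 60, 8 and 4 summits. At like signal the medians of strongest and second summits were thus nearer to each other than 30.7 and 40.6%. These differences by quintile were not tested.

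**Figure D5:**
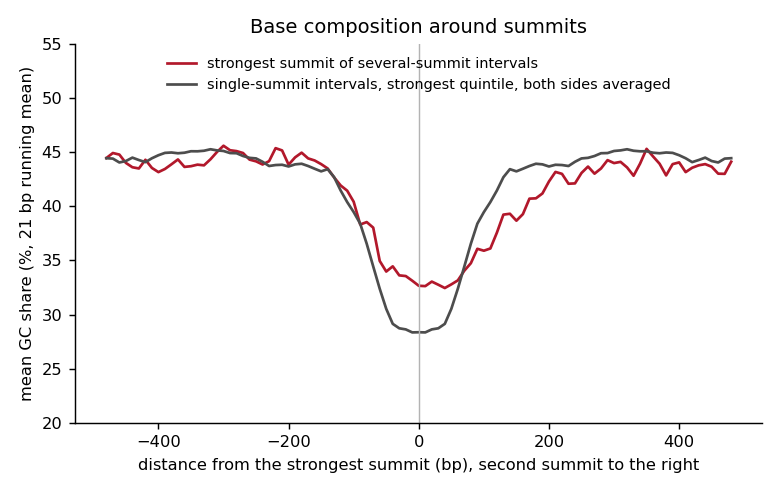
Mean GC share (percent, 21 bp running mean) against distance in bp from the strongest summit, with each several-summit interval turned so that its second summit is to the right, beside single-summit intervals of the strongest quintile averaged over both sides. The several-summit curve is 32.7% at the summit, 43.9% at 200 bp on the left and 42.3% at 200 bp on the right, and the single-summit curve is 28.4% at the summit and 43.7% at 200 bp.

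None of the 16 motifs searched differed between strongest and second summits after adjustment, while 2 had an unadjusted p under 0.05. CACGTG was within 50 bp of the strongest summit alone in 8 intervals and of the second alone in 5, and 1 interval held it at both. CACGCG was at the strongest alone in 18 and at the second alone in 10 intervals (exact two-sided McNemar test, adjusted p = 0.563), and CACNAG at the strongest alone in 25 and at the second alone in 33 (adjusted p = 0.716). AGATAAG, the core of GATA factor sites, was at the strongest alone in 7 and at the second alone in 0 intervals, and CAACAAC, a simple repeat, in 5 and 18 (exact two-sided McNemar test, adjusted p = 0.0938 for both).

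In windows of 201 bp, 12 of the 16 motifs were found at a larger share of the 610 summits than of single-summit ones, and for 4 of the 16 the exact intervals did not overlap. CAACAAC was at 8.69% (6.58 to 11.2%) and at 5.74% (5.24 to 6.28%), and AGATAAG, in the other direction, at 1.48% (0.677 to 2.78%) and at 3.16% (2.79 to 3.57%). CACNAG was at 23.1% (exact 95% interval 19.8 to 26.7%) and at 18.7% (17.8 to 19.5%) of them, and GTGGGAA at 3.93% (2.54 to 5.80%) and at 2.07%, with an upper bound under the lower bound of the several-summit share. Within 50 bp of summits the exact intervals overlapped for all 4. Within 200 bp they overlapped for CACNAG (37.2 to 45.2% and 36.2 to 38.4%) and CAACAAC (14.6 to 20.8% and 13.9 to 15.4%). They did not overlap there for AGATAAG (1.51 to 4.22% and 5.33 to 6.37%) and GTGGGAA (7.01 to 11.8% and 4.04 to 4.96%). Within the strongest quintile, in windows of 201 bp, CACNAG was at 22.0% (17.2 to 27.4%) and 16.6% (14.7 to 18.6%), and GTGGGAA at 3.30% (1.52 to 6.17%) and 1.95% (1.30 to 2.80%), where the intervals overlapped. Within 200 bp of those summits GTGGGAA was at 8.79% (5.71 to 12.8%) and 4.38% (3.39 to 5.57%), which did not overlap. Over all signals, in windows of 201 bp, CACGTG was at 4.75% (3.21 to 6.76%) and 4.02% (3.60 to 4.47%), and CACGCG at 8.20% (6.14 to 10.7%) and 7.15% (6.60 to 7.74%). For CACGCG in the strongest quintile, the shares were 6.96% and 3.69%, and the exact intervals overlapped. They did not overlap within 50 bp of those summits, at 5.13% (2.83 to 8.45%) and 1.74% (1.13 to 2.56%). Nor did they within 200 bp, at 16.8% (12.6 to 21.8%) and 9.88% (8.39 to 11.5%). Whether CACGCG or GTGGGAA differs at like signal thus depended on the window. These intervals cover counting error only, and 16 motifs were looked at. Windows of 200 bp each side share sequence at close summits, so 1 site can count for both, and summits of 1 interval are not independent. GTGGGAA was at 7 of 52 summits of wide intervals and at 12 of 476 of close ones, and 6 of the 21 wide intervals lie in the region of the tagged gene. Without the intervals within 50 kb of the tagged gene, an alternative added after the data were seen, the several-summit shares were 22.7% for CACNAG and 2.93% for GTGGGAA. Exact intervals were not computed for this alternative, so it does not show that either share stays apart from that of single-summit intervals. No test was made of these shares. The groups were not matched for GC share either, and its medians differed between them at like signal, as given above.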

How the data were processed

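Peak lists in narrowPeak format (dm6) of 3 biological replicates, of the replicates pooled, and of the IDR selection were used; according to the provenance records that accompany them, all were called against the same 1 control alignment. The signal of each peak is the authors' value as deposited, from a comparison with that control, and has no stated unit. The authors' -log10 q-value is constant in the IDR list and was not used to rank peaks. Summits are the deposited peak start plus the deposited summit offset. Aligner, peak caller and depth could not be taken from these sources, so exact (Clopper-Pearson) 95% intervals cover counting error over intervals or summits only.

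The intervals, gene lists, motifs and tests were chosen with earlier results of these data known. Each replicate list held 30000 peaks, of which 29995 of replicate 1 lie on the arms used. Summits matched within 100 bp. Start sites came from Ensembl release 115 (Release 6). Transposable-element insertions were counted as genes in a first run and left out afterwards, a choice made after seeing the data. Strongest and second summits were compared by exact two-sided sign or McNemar tests with Benjamini-Hochberg adjustment over 18 tests. A further family of 13 GC comparisons, the 220 and 500 bp limits, the left-to-right order and the region of the tagged gene were added after seeing the data. Genes were named from the 20 strongest intervals, intervals with at least 4 summits, and up to 4 per list, and wide intervals in addition. Python 3.11.15, numpy 2.4.6, scipy 1.17.1 and pandas 2.3.3 were used, and the tests were tested on simulated data.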

Additional observations from a re-analysis of the deposited data

How the results depend on the processing

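The number of several-summit intervals was 146 among the IDR peaks above the median signal, 548 in the pooled list, 707 with overlapping intervals merged and 196 with only summits matched in all 3 replicates. It was 59 with a distance over 220 bp, 21 with one over 500 bp, and between 213 and 238 without 1 replicate. The median distance was 208 bp above the median signal, 204 bp with merging and 205 bp without any 1 replicate. The median ratio was 3.19 with the signals of replicate 3 and 1.94 with a distance over 220 bp. All summits matched in 52.9% of intervals within 50 bp, and in 69.0 to 79.5% without 1 replicate. A promoter summit was present in 45.1% within 250 bp, 67.7% within 1000 bp and 65.8% above the median signal, and in 56.8 to 59.0% without 1 replicate. The strongest summit was the nearer to a start site in 48.5% with protein-coding start sites, 49.2% with all distances at most 220 bp and 48.3 to 51.3% without 1 replicate, so its direction turned, and no setting run passed the exact two-sided sign test. The strongest summit had the higher GC share in 39.7% of intervals with a distance over 220 bp (adjusted p = 1, exact two-sided sign test) and in 27.6 to 28.8% without 1 replicate. Between 0 and 1 motifs passed without 1 replicate, CAACAAC without replicate 3, and 1 passed in windows of 100 bp each side, AGATAAG, at the strongest summit alone in 9 of 228 intervals and at the second alone in 0 (exact two-sided McNemar test, adjusted p = 0.0352). The causes were not tested. No paired analysis was possible because there is 1 group and replicate numbers pair no samples; the paired tests above compare summits of 1 interval. Settings based on spacing, on the tagged region and on insertions were chosen after seeing the data. Depth is unknown.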

Other observations

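Of the 297 several-summit intervals, 124 (41.8%, exact 95% interval 36.1 to 47.6%) had another one within 50 kb, against 2287 of the 7939 single-summit intervals (28.8%, 27.8 to 29.8%). The 124 formed 49 groups, 12 of them with at least 3 intervals, and 11 of the 124 lie near the tagged gene. Neighbouring intervals are not independent, since each counts the other, and no test was made. Signal was not matched here. The quintile with the highest signal held 225 of the 297 strongest summits and 1437 of the 7939 single ones. The gene CG42258 had 3 of them within 1000 bp of its start sites, and CAP, Pgk, ckn and sick had 2 each.

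Pairs of summits at most 220 bp apart also occurred as separate single-summit intervals, in 395 cases, of which 348 had overlapping intervals. Against these, the 238 close several-summit intervals had a higher median signal at the stronger summit, 1430 against 704 units, and a higher median ratio, 2.73 against 1.78. A promoter held the stronger summit in 52.5% of close several-summit intervals (46.0 to 59.0%) and in 55.2% of the separate pairs (50.1 to 60.2%). Both summits were matched in all 3 replicates in 63.9% (57.4 to 70.0%) and in 58.0% (52.9 to 62.9%). The weaker summit had the higher GC share in 75.7% (69.7 to 81.1%) and in 60.6% (55.6 to 65.5%). These are exact 95% intervals for counting error, and no test was made.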
